A study of Mus musculus with 24 samples.

Results

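The 9 genes described here encode the main brakes on JAK-STAT signalling: the suppressors of cytokine signalling Socs1, Socs2, Socs3, Socs4, Socs5 and Cish, the phosphatase Ptpn2, the ISG15 protease Usp18 and the SUMO ligase Pias1. They were taken by gene symbol from the table of estimated counts, in which they are 9 of 17696 listed genes. Each of the 9 was found once, and none was removed by a filter on low counts. The question was how each brake stood in 3 stable lines of MIN6, a mouse insulinoma line used as a model of the pancreatic β cell, before and after proinflammatory cytokines.

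Cytokine and hormone receptors without kinase activity of their own signal through Janus kinases, which phosphorylate STAT transcription factors. Activated STATs switch on several of their own inhibitors, so that the inhibitor level follows the signal: SOCS proteins block the kinases or receptors and hand them to a ubiquitin ligase through their SOCS box, PTPN2 removes phosphate from kinases and STATs, USP18 sits on the type I interferon receptor, and PIAS1 holds back STATs at DNA. In β cells these brakes are known for limiting interferon-driven damage and, in the case of the prolactin and growth hormone receptors, for tuning the response to lactogens.

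The 24 libraries fell into 6 groups of 4. Scr cells carried a scrambled control sequence, ZIP cells an inhibitor of miR-146a-5p, and OE cells a vector overexpressing miR-146a-5p, all delivered by lentivirus and selected with puromycin. Scr+Cy, ZIP+Cy and OE+Cy were the same lines after 24 h with a mix of IFNγ (100 ng/ml), TNFα (10 ng/ml) and IL-1β (5 ng/ml). The lines were expanded from picked single clones, and the OE vector had another backbone and another fluorescent reporter than the Scr and ZIP vectors, so that vector, clone and miRNA level cannot be told apart in a comparison between lines. The level of the miRNA in these libraries was not analysed here. The sources do not say whether the 4 libraries of a group were separate cultures, and the p-values then measure only the spread between these libraries.

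The sequence that sets the lines apart is shown first, with the bases of its seed, positions 2 to 8, in capitals. The mature RNA lies on the minus strand at chr11:43374435-43374456 in GRCm38.p6, the assembly of mm10, and was taken from RefSeq.
mmu-miR-146a-5p: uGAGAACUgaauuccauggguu

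A perfect match to the seed reads AGTTCTC in a transcript. It was searched in the longest annotated 3′ UTR of each gene in GENCODE M21. None of the 9 brakes held it, where 11.1% of 20979 genes did (2326 genes). The shorter match to positions 2 to 7 was present in 3 of 9, with 2 matches in Socs1, 2 in Socs5 and 3 in Pias1, and in 29.5% of all genes. The same search found 2 full matches in Irak1 and 4 in Traf6, genes of the IL-1 receptor pathway that are textbook targets of this miRNA. The nearest to the stop codon of each is printed for comparison with the match in capitals. The Irak1 site lies at chrX:74015383-74015411 on the minus strand and the Traf6 site at chr2:101697948-101697976 on the plus strand.
Irak1 3′ UTR site: tcagaggtcaaAGTTCTCatgcttggaag
Traf6 3′ UTR site: ctctggtgttgAGTTCTCatttagttgac

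The brakes differ in the control elements close to their start sites, which are printed for the 3 genes that hold them. RefSeq promoter windows of 300 bases, 250 before the start and 50 from it, matched 5 of the 9 genes (Socs1, Socs3, Socs4, Cish and Pias1). Both strands were searched for GAS, the STAT element TTCNNNGAA, and for ISRE, the interferon-stimulated element, as GAAA, any 2 bases and GAAA. Among 32851 windows of all genes 8.30% held a GAS match and 3.44% an ISRE match. Socs1 held a pair of ISRE matches that overlap by 4 bases, at positions -83 to -74 and -77 to -68 from the start. Socs3 held a GAS match at -154 to -146, and Cish held a GAS match at 1 to 9 and another at 12 to 20. The Socs4 and Pias1 windows held neither letter string. Matches are in capitals, each stretch reads 5′ to 3′ on the gene's strand, and the positions are chr16:10785574-10785649 on the minus strand for Socs1, chr11:117969482-117969550 on the minus strand for Socs3 and chr9:107296654-107296683 on the plus strand for Cish. A match to these letters is a description of the sequence and was not tested for binding.
Socs1 promoter: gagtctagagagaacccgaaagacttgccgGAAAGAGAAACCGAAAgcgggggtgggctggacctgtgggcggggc
Socs3 promoter: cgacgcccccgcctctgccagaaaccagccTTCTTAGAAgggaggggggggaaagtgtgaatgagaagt
Cish start site: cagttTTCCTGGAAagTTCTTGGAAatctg

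Libraries held 26657792 to 37168232 assigned reads (median 30701023), and every member had at least 16 estimated reads in every library. The 12 β cell markers checked, with Ins1, Ins2 and Pdx1 among them, were all listed and above 1 CPM in all 6 groups. Their summed level was 23543 to 35399 CPM in the Scr, ZIP, Scr+Cy and ZIP+Cy libraries, 47847 to 51514 CPM in OE and 30524 to 39472 CPM in OE+Cy, so that it was highest in OE and lower there with cytokines. Of the immune list 3 of 5 genes were listed, summing to between 0.589 and 4.49 CPM, and the pan-leukocyte gene Ptprc did not pass 0.422 CPM. Krt19, a duct keratin, was seen in the OE line. The 2 listed acinar and duct markers summed there to between 12.4 and 24.2 CPM against at most 1.11 CPM in the other groups. The 4 listed markers of other islet cells summed to less in the OE line (9.09 to 56.0 CPM against 78.4 to 369 CPM), but more of them were seen. Of the 4, 3 had a mean of at least 1 CPM in OE and 2 in OE+Cy, against 1 in each other group. Of fibroblast and endothelial markers 4 of 5 were listed, at 0.929 to 30.8 CPM. The part of these differences in the results below was not tested. In bulk RNA, fewer cells of a type and less RNA per cell cannot be told apart.

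Levels are given as CPM, counts per 1000000 assigned reads after TMM scaling, which may be compared between libraries for a gene but not between genes. A gene was called in a comparison when its fold change was at least 1.5 and its unadjusted p under 0.05 in edgeR's quasi-likelihood test, the limits that the study used, and p-values named adjusted were corrected by Benjamini and Hochberg's method over the 17696 genes.

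**Figure D1:**
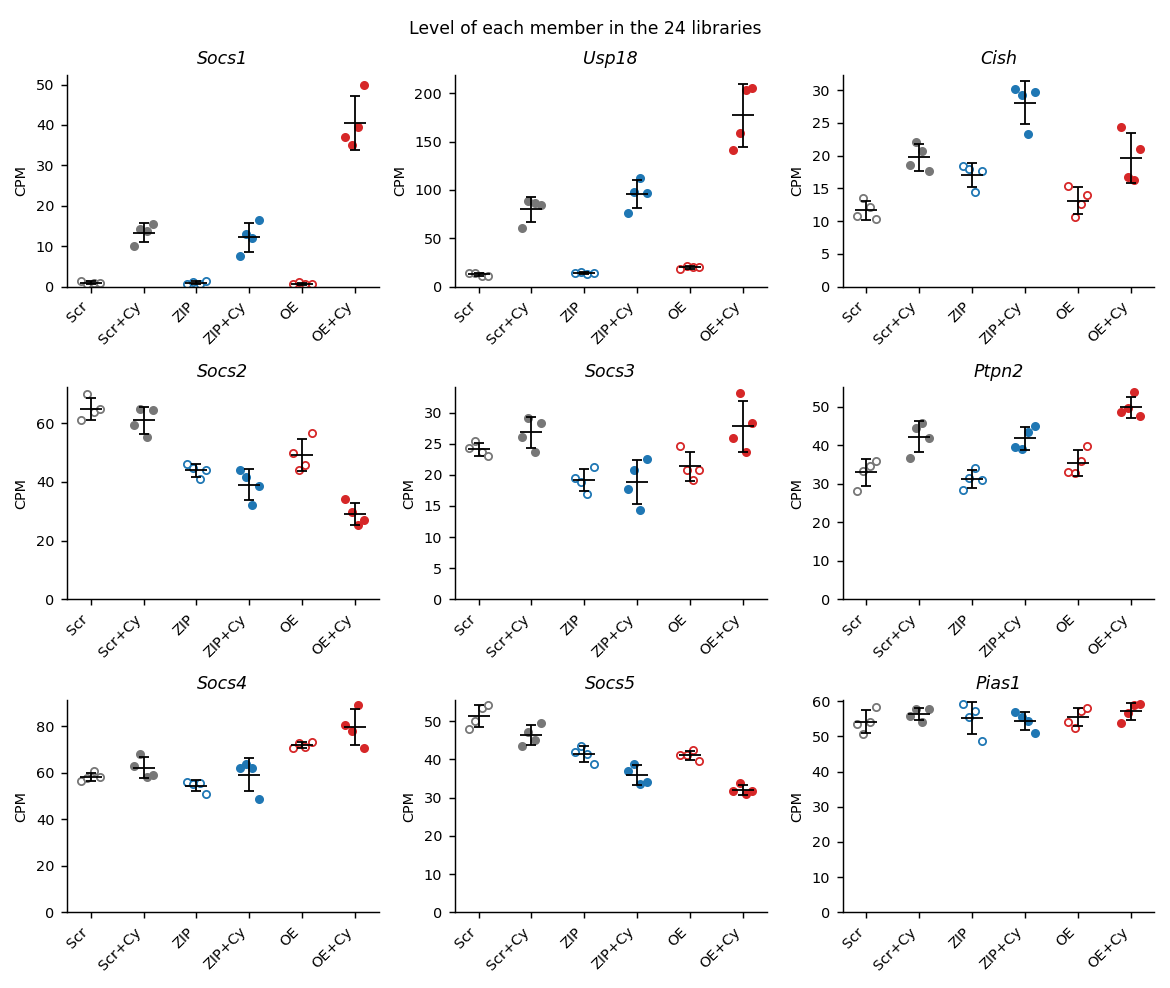
CPM of each member (y axis, linear from 0) in the 24 libraries, grouped on the x axis by line and cytokines; open circles are libraries without cytokines and filled circles with cytokines, and the black bars are the mean ± SD of 4 libraries. Socs1 and Usp18 rose in all 3 lines and highest in OE+Cy, where Socs1 reached 35.0 to 50.0 CPM, Cish was highest in ZIP+Cy, and Pias1 stayed between 48.7 and 59.2 CPM in every library.

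Socs1 encodes the SOCS protein that binds JAK1 and JAK2 and shuts off the IFNγ receptor. Its level was low in resting cells and rose strongly with cytokines in all 3 lines, most of all in OE. The 4 Scr libraries stood at 1.40, 0.661, 0.844 and 0.960 CPM, the ZIP libraries at 0.732, 1.09, 0.589 and 1.31 CPM, and the OE libraries at 0.544, 1.09, 0.745 and 0.524 CPM. These 3 groups overlapped and were not separated by the test. Counting error is large at this level, since a resting library held only 16 to 52 estimated reads of the gene.

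With cytokines Socs1 reached 9.95, 14.2, 13.7 and 15.6 CPM in Scr+Cy and 7.68, 13.0, 11.9 and 16.4 CPM in ZIP+Cy. In OE+Cy it reached 36.9, 35.0, 39.6 and 50.0 CPM, above every library of the other 5 groups. The response was 13.7-fold in Scr (log2 fold change 3.77, SE 0.25, edgeR adjusted p = 2.55e-11), 13.2-fold in ZIP (log2 3.72, SE 0.26) and 54.6-fold in OE (log2 5.77, SE 0.26, adjusted p = 7.80e-15). By size it ranked 394th, 318th and 212th from the top among the 17696 genes in Scr, ZIP and OE. The response in OE exceeded that in Scr by 2.00 on the log2 scale (95% interval 1.18 to 2.81, edgeR interaction, adjusted p = 8.71e-04) and that in ZIP by 2.05 (1.20 to 2.90, adjusted p = 0.00100). Between ZIP and Scr the responses differed by -0.05 (-0.88 to 0.77). The wider response of OE came with a higher treated level, 3.02-fold over Scr+Cy (log2 1.59, SE 0.19), while the resting level was 0.757 times that of Scr, a difference within its error (log2 -0.40, SE 0.35, adjusted p = 0.354).

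Usp18 encodes the protease that strips ISG15 from proteins and that also blocks signalling at the interferon receptor chain IFNAR2. It was expressed at rest and rose with cytokines in every line. Scr held 13.8, 14.5, 11.4 and 11.0 CPM and Scr+Cy 60.9, 88.5, 86.8 and 84.2 CPM. ZIP held 13.8, 14.7, 12.8 and 13.9 CPM and ZIP+Cy 76.1, 98.1, 112 and 97.1 CPM. OE held 17.9, 21.7, 19.9 and 20.1 CPM, above every Scr and ZIP library, and OE+Cy 141, 159, 203 and 206 CPM, above every other library.

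The Usp18 response was 6.30-fold in Scr (log2 2.65, SE 0.14, edgeR adjusted p = 2.72e-13), 6.95-fold in ZIP (log2 2.80) and 8.89-fold in OE (log2 3.15). OE cells already held 1.57 times the Scr level at rest (log2 0.65, SE 0.14, adjusted p = 4.39e-04) and 2.21 times the Scr+Cy level after treatment (log2 1.15, SE 0.13). The larger response of OE over Scr, 0.50 on the log2 scale (0.11 to 0.89), missed the threshold (edgeR interaction, adjusted p = 0.0655). With the replicate number as a block it was 0.51 and passed (adjusted p = 0.0211), and DESeq2 also called it (adjusted p = 0.0301). Over all alternatives the adjusted p ran from 0.0186 to 0.158. Usp18 was thus higher in OE before as well as after cytokines, whereas for Socs1 a difference from Scr passed the test only after them.

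Cish encodes the SOCS family member that acts on prolactin, growth hormone and other STAT5-coupled receptors. It rose moderately with cytokines and stood higher in ZIP. Scr held 10.8, 13.5, 12.1 and 10.3 CPM and Scr+Cy 18.6, 22.1, 20.7 and 17.6 CPM. ZIP held 18.4, 17.9, 14.4 and 17.7 CPM, above every Scr library, and ZIP+Cy 30.2, 29.2, 23.3 and 29.7 CPM, above every library of any other group except that OE+Cy replicate 1 lay within its range. OE held 15.3, 10.6, 12.6 and 14.0 CPM and OE+Cy 24.4, 16.8, 16.3 and 21.0 CPM.

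The Cish response was 1.69-fold in Scr (log2 0.76, SE 0.13, edgeR adjusted p = 1.22e-04), 1.64-fold in ZIP (log2 0.72) and 1.49-fold in OE (log2 0.58, adjusted p = 7.10e-04), the last just under the fold limit. No difference between lines in the response passed the test (-0.18 to -0.04, with 95% intervals within -0.56 to 0.33, edgeR interactions, adjusted p from 0.552 to 1.000). ZIP exceeded Scr by 0.55 on the log2 scale at rest (adjusted p = 0.00224) and by 0.51 with cytokines (adjusted p = 0.00337), both significant after adjustment and both under 1.5-fold.

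Socs2, which restrains growth hormone signalling, moved the other way. Scr held 60.9, 69.9, 63.8 and 64.9 CPM and Scr+Cy 59.5, 64.9, 55.2 and 64.5 CPM, 2 groups that overlapped. ZIP held 46.0, 44.7, 40.9 and 44.1 CPM and ZIP+Cy 44.2, 41.5, 32.0 and 38.6 CPM. OE held 49.9, 44.2, 45.9 and 56.6 CPM and OE+Cy 34.1, 29.8, 25.2 and 27.1 CPM. All libraries of ZIP and OE lay below all of Scr, and all of OE+Cy below all of OE.

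Cytokines lowered Socs2 in OE to 0.591 of its resting level (log2 -0.76, SE 0.10, edgeR adjusted p = 5.69e-07). In Scr and ZIP the log2 differences were -0.09 (95% interval -0.28 to 0.10) and -0.17 (-0.36 to 0.03). The interactions were -0.67 for OE against Scr (adjusted p = 9.07e-04) and -0.59 for OE against ZIP (adjusted p = 0.00304). OE+Cy thus held 0.476 of the Scr+Cy level (log2 -1.07, SE 0.10), and ZIP+Cy 0.641 (log2 -0.64, SE 0.09). Without ZIP+Cy replicate 3, the lowest of that group, the latter was -0.56 and below the fold limit. At rest Socs2 was lower in both lines, by log2 -0.56 in ZIP and -0.40 in OE (adjusted p = 5.23e-05 and 8.69e-04), neither past 1.5-fold.

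Socs3, which binds the shared receptor chain gp130 and JAKs to stop IL-6 type signals, was a small responder. Scr held 24.1 ± 1.04 CPM (SD, n = 4) and Scr+Cy 26.8 ± 2.53 CPM. ZIP held 19.1 ± 1.77 and ZIP+Cy 18.8 ± 3.56 CPM, OE 21.4 ± 2.37 and OE+Cy 27.8 ± 4.04 CPM. Every ZIP library lay below every Scr library, while treated and resting libraries overlapped in each line. No cytokine response was called: the log2 values were 0.15, -0.02 and 0.38 in Scr, ZIP and OE, and the OE value had an edgeR adjusted p of 0.00858. The response in OE exceeded that in ZIP by 0.40 (0.06 to 0.74), with an adjusted p of 0.0893 that was 0.0193 with the replicate block and 0.0193 to 0.218 over all alternatives. Socs3 was lower in ZIP than in Scr at rest (log2 -0.34, adjusted p = 0.0315) and with cytokines (log2 -0.51, adjusted p = 0.00170), both under 1.5-fold, and the latter passed it without ZIP+Cy replicate 4 (log2 -0.60).

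Ptpn2, the T cell protein tyrosine phosphatase that acts on JAK1 and STAT3, rose a little in every line. Its mean went from 32.9 ± 3.47 to 42.2 ± 4.00 CPM in Scr, from 31.2 ± 2.31 to 41.7 ± 3.01 CPM in ZIP and from 35.4 ± 3.30 to 49.9 ± 2.67 CPM in OE (SD, n = 4). In each line every treated library lay above every resting one. The log2 responses of 0.36, 0.42 and 0.49 all had edgeR adjusted p-values under the 0.05 limit (0.00312, 5.20e-04 and 2.62e-05), and none reached 1.5-fold. No difference between lines in this response passed the test, with 95% intervals within -0.18 to 0.38. OE+Cy exceeded Scr+Cy by log2 0.24 (adjusted p = 0.0163).

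Socs4 and Socs5 encode the long SOCS proteins linked to the EGF receptor. Socs4 was higher in OE, where resting libraries held 70.5 to 73.3 CPM against 56.4 to 60.6 CPM in Scr (log2 0.30, SE 0.07, edgeR adjusted p = 0.00128), with OE+Cy at 70.4 to 89.1 CPM against 58.2 to 68.2 CPM in Scr+Cy (log2 0.36). ZIP held 50.9 to 55.8 CPM and ZIP+Cy 48.6 to 63.9 CPM. Its cytokine responses were 0.09, 0.12 and 0.14, none of them past the test.

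Socs5 was lower in both modified lines. Scr held 47.9 to 54.2 CPM, ZIP 38.8 to 43.6 CPM and OE 39.6 to 42.5 CPM (log2 -0.31 and -0.32 against Scr, SE 0.06 for both, edgeR adjusted p = 1.61e-04 and 3.96e-05). Cytokines took it to 43.4 to 49.4 CPM in Scr+Cy, 33.5 to 38.9 CPM in ZIP+Cy and 30.9 to 33.9 CPM in OE+Cy. The log2 responses were -0.15, -0.21 and -0.36, of which the last 2 passed at an adjusted p under 0.05 (0.00818 and 1.49e-05) and none reached 1.5-fold. Pias1 ranged from 48.7 to 59.2 CPM over all 24 libraries, its log2 differences lay between -0.05 and 0.08 in all 9 comparisons, and none passed the test.

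Set against all genes, the cytokine response was called for 3 of 9 brakes in Scr (Socs1, Usp18 and Cish, all higher), where 10.6% of all genes were called and 7.88% were called higher. It was called for the same 3 genes in ZIP, where 12.5% of genes were called and 7.28% higher. In OE it was also called for 3 of 9, Socs1 and Usp18 higher and Socs2 lower, against 21.0% of genes called and 13.0% called higher. The median log2 response of the 9 was 0.15 in Scr, 0.12 in ZIP and 0.38 in OE, beside medians of 0.00, -0.01 and 0.02 over all genes. With 9 genes these shares rest on few members, and 6 of the 9 were not called in each line.

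**Figure D2:**
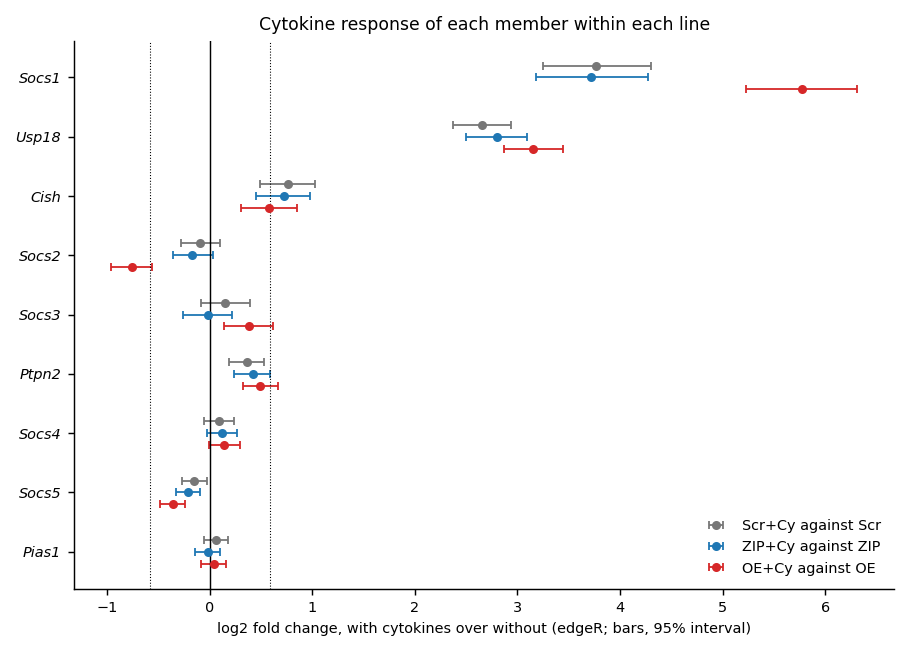
log2 fold change with cytokines over without (x axis) for the 9 members (y axis) in Scr (grey), ZIP (blue) and OE (red), with 95% intervals from edgeR; dotted lines mark 1.5-fold. Socs1 stands at 3.77, 3.72 and 5.77 and Usp18 at 2.65, 2.80 and 3.15, while Socs2 lies left of 0 in OE (-0.76).

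Between the resting lines, 0 of 9 brakes were called in ZIP against Scr by edgeR at the joint limit, where 14.9% of all genes were. DESeq2 and limma also called 0. Socs2, Socs3, Socs5 and Cish had an unadjusted and an adjusted p under 0.05 in edgeR. The share of all genes under that limit alone was not counted, so these p-values stand without a background. Leaving out Scr replicate 1, 2 or 3 or ZIP replicate 3 brought 1 gene, Socs2 or Cish, past 1.5-fold. In OE against Scr 1 of 9 was called, Usp18 (25.7% of all genes).

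With cytokines on both sides 1 of 9, Socs2, was called in ZIP+Cy against Scr+Cy (15.8% of all genes). In OE+Cy against Scr+Cy 3 of 9 were called, Socs1 and Usp18 higher and Socs2 lower (28.5% of all genes). The share of brakes called between lines was near or under the share of all genes in each of these comparisons. In the comparisons where line and cytokines changed together, 4 of 9 were called in ZIP+Cy against Scr (21.7% of all genes), Socs1, Usp18 and Cish higher and Socs2 lower. In OE+Cy against Scr 6 of 9 were called (34.2% of all genes): Socs1, Usp18, Cish and Ptpn2 higher, Socs2 and Socs5 lower. Ptpn2 was there only just past the limit (log2 0.60) and fell under it without Scr replicate 1 (0.53) or OE+Cy replicate 3 (0.58). All comparisons with Scr share its libraries, and those with Scr+Cy share theirs.

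**Figure D3:**
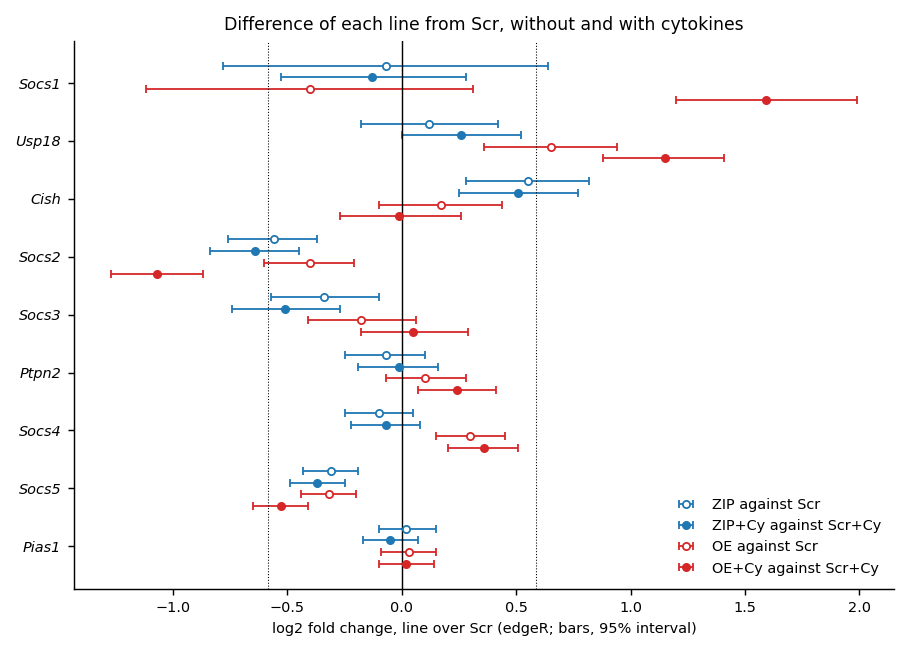
log2 fold change of ZIP (blue) or OE (red) over Scr (x axis) for the 9 members (y axis), without cytokines (open) and with cytokines on both sides (filled), with 95% intervals from edgeR; dotted lines mark 1.5-fold. Socs1 in OE moves from -0.40 to 1.59 and Socs2 from -0.40 to -1.07, whereas the ZIP pairs of points lie close together.

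The test of whether the cytokine response differed between lines called 2 of 9 for OE against Scr (Socs1 and Socs2) and the same 2 for OE against ZIP, where 20.0% and 20.6% of all genes were called at an adjusted p under 0.05. For ZIP against Scr it called 0 of 9, with edgeR, DESeq2 and limma alike, and 0 of 9 had an unadjusted p under 0.05. Over all genes 0.0565% were called for ZIP against Scr (10 genes), and 1137 genes had an unadjusted p under 0.05. The intervals for ZIP against Scr were narrow for Pias1 (-0.25 to 0.09) and Socs5 (-0.23 to 0.11) and wide for Socs1 (-0.88 to 0.77), so that a difference of under 1.5-fold in Socs1 was not detectable at this depth.

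In the order of the 6 group means, Socs1 formed 3 steps: OE, ZIP and Scr were not separated by the test, ZIP+Cy and Scr+Cy were not separated either but lay above those, and OE+Cy lay above all (edgeR, adjusted p = 1.88e-07 to the next group). Usp18 had 4 steps, Scr with ZIP, then OE (adjusted p = 0.00273 to ZIP), then Scr+Cy with ZIP+Cy, then OE+Cy. Socs2 ran from OE+Cy through ZIP+Cy, ZIP and OE to Scr+Cy and Scr, with a step after OE+Cy (adjusted p = 5.62e-04) and another between OE and Scr+Cy (adjusted p = 0.00659). Adjacent groups from ZIP+Cy to OE were not separated, but ZIP+Cy lay below OE (log2 -0.33, edgeR adjusted p = 0.00503). For Socs3 and Pias1 the test separated no neighbouring groups.

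Each gene was compared with its neighbours on the chromosome. In the files' mm10 coordinates Cish lies at chr9:107296659-107302784. Of its 83 neighbours within 5 Mb and with a mean of at least 10 CPM, 72 were called higher in ZIP than in Scr and 0 lower, and all 83 were higher in value, with a median log2 difference of 0.81 beside 0.55 for Cish itself. With cytokines 72 were again called higher, with a median of 0.82 beside 0.51. In OE against Scr the median of these neighbours was -0.09. In the cytokine responses it was -0.01, -0.01 and 0.01, beside 0.76, 0.72 and 0.58 for Cish. The higher Cish level of ZIP was therefore shared by the region and its cytokine response was not; what part the region has in the Cish level was not tested.

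**Figure D4:**
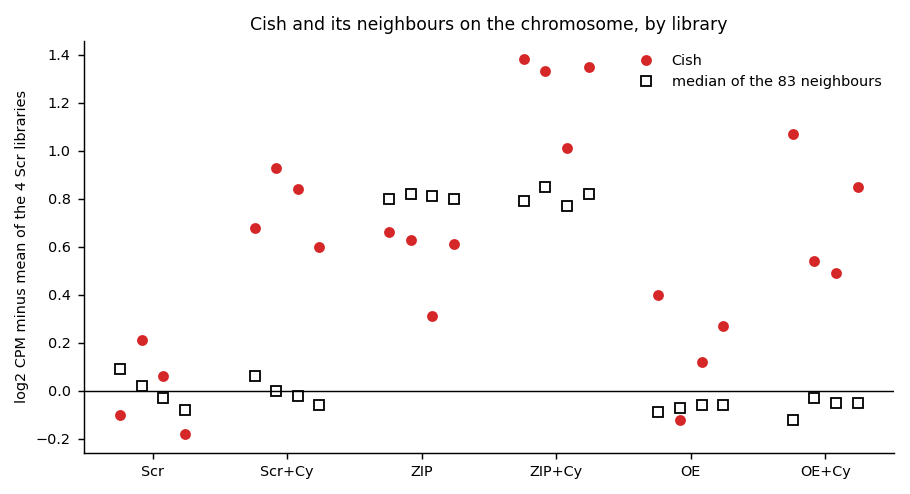
log2 CPM minus the mean of the 4 Scr libraries (y axis) for Cish (red circles) and for the median of its 83 neighbours within 5 Mb (open squares), library by library in the 6 groups (x axis, replicates 1 to 4 from left to right). The neighbours sit at 0.77 to 0.85 in the 8 ZIP and ZIP+Cy libraries and between -0.12 and 0.09 in the other 16, while Cish rises with cytokines in each line.

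For the other 8 brakes the neighbour medians in ZIP or OE against Scr lay between -0.23 and 0.14. In ZIP against Scr, 15 of the 35 neighbours of Socs1 (chr16:10783809-10785536) were called lower, with a median of -0.23, while Socs1 stood at -0.07. For Socs2 (chr10:95411490-95416857) the 27 neighbours had medians of 0.01 in ZIP and 0.13 in OE against Scr, beside -0.56 and -0.40 for the gene. For Usp18 (chr6:121245906-121270917) the 63 neighbours had a median of 0.01 in OE against Scr, beside 0.65.

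The rest of the pathway gives the setting of the brakes. The IFNγ receptor chain Ifngr2 had 15.9 to 18.7 CPM in Scr, 10.8 to 11.4 CPM in OE and 70.2 to 113 CPM in OE+Cy, a rise of log2 3.02 in OE against 1.32 in Scr and 1.54 in ZIP, and its response differed between OE and Scr (log2 1.69, edgeR interaction, adjusted p = 2.39e-07). Jak2, the kinase of that receptor, rose by log2 0.81, 1.02 and 1.68, and the difference between OE and Scr was 0.86 (adjusted p = 4.37e-05). At rest both were lower in OE than in Scr (log2 -0.63 for Ifngr2 and -0.44 for Jak2). The other chain, Ifngr1, had log2 responses of 0.03, 0.15 and 0.17. Its response did not differ between OE and Scr by the test (0.14, edgeR interaction, adjusted p = 0.570). For the kinase Jak1 the difference was 0.27 (adjusted p = 0.0153). Over all genes 20.0% were called in that test. So the larger Socs1 response in OE stood beside larger responses of some parts of the same pathway, and a link between them was not tested.

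Of the 13 receptors 4 were called higher in Scr and 0 lower, 4 higher and 1 lower in ZIP, and 6 higher and 2 lower in OE, with median log2 responses of 0.05, 0.15 and 0.80. Beside the receptors and the lists below, 10.6%, 12.5% and 21.0% of all genes were called in Scr, ZIP and OE, with medians of 0.00, -0.01 and 0.02. Among the receptors Il2rg had the largest fitted change in each line, but it held at most 2 reads in any resting library and 0.339 to 1.42 CPM with cytokines. Ifngr2 and Ifnar2 followed in Scr (Ifnar2 log2 1.01). In ZIP the call of the oncostatin M receptor Osmr as lower rested on 1 library, as Osmr had 1.17 CPM in 1 ZIP library and a median of 0.0182 CPM. Of the 4 kinases 2, 3 and 3 were called, all higher, led by Jak3 in Scr (log2 1.08) and OE (log2 1.75) and by Jak2 in ZIP. Among the STATs, Stat2 rose by log2 3.05, 3.12 and 3.81 and Stat3 by 1.88, 1.55 and 2.06. Stat4, called higher in ZIP and OE, did not pass 0.406 CPM in any library.

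The receptors that Cish and Socs2 act on fell with cytokines in OE, and Ghr fell in Scr and ZIP too. Prlr, the prolactin receptor, held 838 to 999.6 CPM in Scr and 751 to 976 CPM in Scr+Cy, 743 to 837 CPM in OE and 132 to 352 CPM in OE+Cy, a fall of log2 -1.83 in OE (SE 0.22, edgeR adjusted p = 3.83e-07) against -0.01 in Scr and 0.05 in ZIP. The response of OE differed from that of Scr by -1.82 (edgeR interaction, adjusted p = 2.16e-04). Ghr, the growth hormone receptor, fell by log2 -0.65 in OE, and the difference from Scr was -0.42 (edgeR interaction, adjusted p = 0.00625). It fell less in Scr (log2 -0.24, edgeR adjusted p = 0.0268) and ZIP (log2 -0.30, adjusted p = 0.00327), under 1.5-fold in both. At rest Ghr was higher in OE than in Scr (log2 0.22, adjusted p = 0.0155). Prlr was lower in ZIP than in Scr at rest (log2 -0.80, adjusted p = 0.00696) and with cytokines (log2 -0.75, adjusted p = 0.0120). Stat5b and Stat5a, the STATs of these receptors, were lower in OE than in Scr at rest (log2 -1.01 and -0.78, edgeR adjusted p = 3.89e-12 and 2.17e-08). With cytokines both rose in OE (log2 0.24 and 0.65, adjusted p = 0.00488 and 6.92e-07), Stat5b by under 1.5-fold. These responses exceeded those in Scr by 0.29 and 0.57 (edgeR interactions, adjusted p = 0.0296 and 0.00108). Of the 6 STAT5 target and lactogen response genes, a list that holds Prlr too, 1 was called higher in Scr (Tph2), 2 higher and 1 lower in ZIP (Tph2 and Tph1, and Ccnd2) and 2 higher and 3 lower in OE, where Prlr, Bcl6 (log2 1.82) and Tph2 (log2 1.18) moved most; the medians were 0.15, 0.25 and -0.43. From OE to OE+Cy Socs2 thus fell together with Prlr and Ghr, while Bcl6, a transcriptional repressor, rose. Against Scr+Cy, OE+Cy was much lower in Prlr (log2 -1.99) but little lower in Ghr (log2 -0.20). The mean of Ghr was 129 CPM in OE+Cy and 133 CPM in ZIP+Cy. A link between these genes and Socs2 was not tested. The cyclin Ccnd2 fell by log2 -0.63 in OE and -0.62 in ZIP, with -0.46 in Scr (edgeR adjusted p = 0.0295), so that its fall was not particular to OE. Tph1, called lower in OE, had scattered libraries there, at 122 ± 73.5 CPM at rest and 60.0 ± 61.2 CPM with cytokines (SD, n = 4), and an edgeR adjusted p of 0.0599.

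The ISG15 system, which Usp18 reverses, was called higher in 4 of 4 genes in each line, with medians of 5.23, 5.34 and 6.24. Isg15 itself went from 0.374 to 0.563 CPM in Scr to 35.8 to 65.7 CPM in Scr+Cy, from 0.549 to 3.29 CPM in ZIP (median 0.713 CPM, with 1 library far above the others) to 44.8 to 83.2 CPM in ZIP+Cy, and from 0.110 to 0.262 CPM in OE to 108 to 152 CPM in OE+Cy, where the resting libraries held only 4 to 8 reads. The E2 enzyme Ube2l6 rose by log2 5.32, 5.20 and 5.67, more than Usp18 in each line.

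Of 10 other inhibitors 0 were called in Scr, 1 in ZIP (Ptpn11, log2 0.68) and 0 in OE, with medians of -0.07, 0.16 and 0.07, beside 10.6%, 12.5% and 21.0% of all genes. Ptpn1, the phosphatase PTP1B, rose by log2 0.26, 0.39 and 0.25 (edgeR adjusted p = 6.41e-04, 3.36e-06 and 4.38e-04), under 1.5-fold in each line. The response of Ptpn11, the phosphatase SHP-2, was larger in ZIP than in Scr by 0.65 (edgeR interaction, adjusted p = 0.0132), and that of the SUMO ligase Pias4 was higher in OE than in Scr by 0.38 (adjusted p = 0.00472). Of the 4 SOCS box ligase partners 0 were called in any line (medians -0.06, -0.04 and -0.12), beside the same shares of all genes. The ligase subunit Rnf7 was lower with cytokines by log2 -0.25 in ZIP and -0.45 in OE (edgeR adjusted p = 0.00433 and 5.10e-06), under 1.5-fold in both, and its response differed between OE and Scr by -0.29 (edgeR interaction, adjusted p = 0.0297). Between lines, the phosphatase Ptpn6 (SHP-1) was far higher in OE, with 23.2 to 26.3 CPM against 1.61 to 3.29 CPM in Scr (log2 3.26, edgeR adjusted p = 4.08e-12). Rnf7 was higher in ZIP, with 73.0 to 80.7 CPM against 33.7 to 41.1 CPM in Scr (log2 1.06, edgeR adjusted p = 7.58e-12). Neighbours on the chromosome were compared for the brakes only, not for Ptpn6 or Rnf7.

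**Figure D5:**
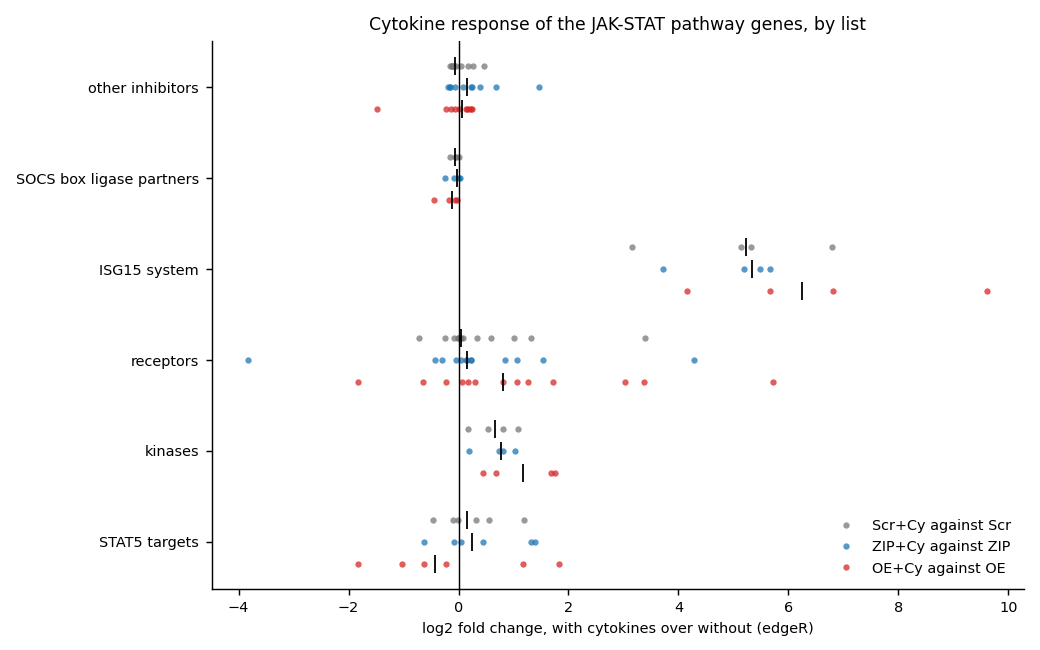
log2 fold change with cytokines over without (x axis) of each gene in 6 lists of the JAK-STAT pathway (y axis), in Scr (grey), ZIP (blue) and OE (red); black ticks are list medians. The ISG15 system lies right of 2 in each line, with a median of 6.24 in OE, and most other inhibitors and the SOCS box ligase partners lie near 0.

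The genes whose pattern over the 24 libraries was nearest to a brake were found for the 2 brakes called in all 3 cytokine responses, among 13310 genes, by the root mean square difference of centred log2 CPM. Nearest to Socs1 were the transcription factor Irf1 (0.41), the histidine decarboxylase gene Hdc (0.43) and the interferon-induced GTPase Mx2 (0.47), where the median gene differed by 2.31. Their log2 responses in Scr, ZIP and OE were 3.86, 3.75 and 5.15 for Irf1 and 3.57, 3.29 and 5.59 for Mx2, beside 3.77, 3.72 and 5.77 for Socs1. For Hdc the fitted responses were larger, at 5.09, 5.10 and 6.42. Hdc held at most 3 reads in any resting library and 2.50 to 3.38 CPM in OE+Cy. Nearest to Usp18 were Parp12 (0.18), Nmi (0.19) and Cmpk2 (0.23), where the median gene differed by 1.53. Their responses in Scr, ZIP and OE were log2 2.68, 2.65 and 3.25 for Parp12 and 2.72, 2.83 and 3.27 for Nmi, beside 2.65, 2.80 and 3.15 for Usp18.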

How the data were processed

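The authors deposited a table of estimated counts per gene, with 30.3% of values not whole, and a second table of normalized signal, the counts divided by a size factor per library. Per the labels' processing list, FastQC, STAR 2.7.8a and Partek 11.0.24.0204 were used on mm10, with DESeq2 named too. The study's methods give earlier versions of STAR and Partek Flow than this list, and a RefSeq transcript annotation for assigning reads to genes; whether strand was used is not given in the sources used here. Genes under 10 reads in total had been removed, which was checked on the file (lowest total 10).

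Estimated counts were rounded and fitted in edgeR 4.0.16 (R 4.3.3, quasi-likelihood, TMM) over all 24 libraries and 17696 genes as 6 group means. Calls in pairs of groups needed 1.5-fold and an unadjusted p under 0.05, and interactions an adjusted p under 0.05. Alternatives were DESeq2 1.42.0, its size factors in edgeR, a filter on low counts, only the groups compared, a replicate block, limma 3.58.1 on log2(normalized signal + 1) or + 0.5, and each library left out in turn. The fit was tested on simulated data. No libraries of a group were near copies (lowest chi-square per degree of freedom 7.7).

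The labels number replicates 1 to 4 in every group, and each number carries a code shared by all 6 groups whose meaning they do not state. Deviations of same-numbered libraries from their group means were correlated over 12670 genes. The correlations were 0.41 to 0.63 between Scr+Cy and Scr, 0.26 to 0.40 between ZIP+Cy and ZIP and 0.16 to 0.45 between OE+Cy and OE. They were 0.14 to 0.63 between ZIP and Scr, 0.20 to 0.41 between OE and ZIP and 0.19 to 0.37 between ZIP+Cy and Scr+Cy. All of these passed 0.1. They did not all pass 0.1 between OE and Scr (-0.13 to 0.29) or OE+Cy and Scr+Cy (0.00 to 0.17). The main fit had no replicate block, so its p-values, those of the interactions included, do not use this pairing. Values with the replicate block stand beside the interactions where a call changed.

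The 9 members, the pathway lists, markers, motifs and seed were chosen with earlier results of these data known. All members were named in every comparison, and of each list the up to 3 called genes of largest change. Ghr, Ptpn1, Ifngr1 and Jak1 were named after their values were seen, and Irak1 and Traf6 were added to check the seed search. Neighbours were genes within 5 Mb with a mean of at least 10 CPM. Sequences came from RefSeq (GRCm38.p6) and GENCODE M21. Some pathway genes and lists are not reported here.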

Additional observations from a re-analysis of the deposited data

Results flagged for a closer look

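In 5 of 54 combinations of a gene and a group, 1 library lay far from the other 3, where chance alone flags about 1 in 20 groups. Socs4 was lowest in ZIP replicate 4 (50.9 CPM, the others at 55.1 to 55.8 CPM) and in ZIP+Cy replicate 4 (48.6 CPM, the others at 61.9 to 63.9 CPM), while the median of the 39 Socs4 neighbours stood at -0.01 and -0.02 on the log2 scale in these libraries relative to Scr. Cish was lowest in ZIP replicate 3 (14.4 CPM) and in ZIP+Cy replicate 3 (23.3 CPM), libraries in which the 83 Cish neighbours stood at 0.81 and 0.77, as in the other ZIP libraries. Usp18 was lowest in Scr+Cy replicate 1 (60.9 CPM), where Socs1 was also lowest of its group (9.95 CPM). In that library the ISG15 system stood at 4.99 on the log2 scale above Scr, against 5.24 to 5.34 in the other 3 Scr+Cy libraries. At rest the ISG15 system stood at 1.05 in ZIP replicate 4, against -0.40 to -0.02 in the other 3 ZIP libraries, while Usp18 in that library (13.9 CPM) lay within the range of its group.

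The cytokine response differed between lines for 2 genes, by the edgeR interaction. For Socs1 the difference was 2.00 (OE minus Scr, log2) and 2.05 (OE minus ZIP), and for Socs2 it was -0.67 and -0.59. Socs1 and Socs2 kept these calls in all 31 alternatives, with ranges of 1.75 to 2.29 and -0.75 to -0.60 against Scr, and 1.83 to 2.33 and -0.67 to -0.51 against ZIP.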

How the results depend on the processing

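Of 381 recomputed counts of members called, 375 stayed within 1.5 times the reported count, and of 3429 recomputed log2 fold changes 3397 kept their side of the limits, 3 lost a call, 29 gained one and 0 turned direction. The counts that moved came from leaving out 1 library: ZIP against Scr ranged from 0 to 1 (1 without Scr replicate 1, 2 or 3 or ZIP replicate 3), ZIP+Cy against Scr+Cy from 1 to 2 (2 without ZIP+Cy replicate 4), and the response of OE minus Scr from 2 to 4 (4 without Scr replicate 4, with Usp18 and Socs5 added). The Cish response in OE, just under 1.5-fold, passed it in 10 of 32 alternatives (log2 0.46 to 0.66). With the replicate block 3 members were called in each line's cytokine response, 0 for ZIP and 1 for OE against Scr. The counts were 1 for ZIP+Cy and 3 for OE+Cy against Scr+Cy. They were 3 for OE minus Scr, with Usp18 added, and 3 for OE minus ZIP, with Socs3 added. No other call of a member changed under the block. Resting Socs1, at 16 to 52 reads per library, limits how well its response can be compared between lines; the cause of the other shifts was not tested.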
